A study of Mus musculus with 6 samples.

Results

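Voltage-gated sodium and calcium channels were followed in mouse cerebral cortex on postnatal day 8 through the genes that encode their subunits. Members were taken by name from the deposited expression table: sodium channel genes named *Scn* with a number and a or b, and the calcium channel genes *Cacna1a* to *Cacna1i*, *Cacna2d*, *Cacnb* and *Cacng*. This gave 38 of 34745 genes. Levels are given in FPKM (fragments per kilobase of transcript, scaled to the number mapped). Of the 38 genes, 30 reached 0.5 FPKM in at least 3 of 6 libraries and were tested, and 8 did not. All 30 tested members reached 0.5 FPKM in all 6 libraries. The sodium channel gene *Scn2a1* lies outside the naming pattern because its symbol ends in a digit, and it is given only for reference. The RNA came from 3 control samples of genotype Pen-2 F/F, in which both copies of the gene are floxed, and from 3 Pen-2 cKO samples of genotype Pen-2 F/F; hGFAP-Cre. Both groups thus carry the floxed alleles. Since no control carries Cre, what the transgene does by itself and what the loss of PEN-2 does cannot be told apart. The human GFAP promoter is active in astrocytes and in the radial glia from which cortical neurons and glia arise. The labels do not say whether each library came from a separate animal, so the spread on which p-values rest may be technical.

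Sodium channels open on depolarisation and carry the upstroke of the action potential. Their pore is a single large alpha subunit, and the smaller beta subunits set gating, surface level and adhesion. Voltage-gated calcium channels convert depolarisation into calcium entry, which drives transmitter release, dendritic signalling and burst firing. Their pore-forming alpha1 subunit sets the current type, while alpha2delta and beta subunits govern trafficking. Most gamma subunits act in brain chiefly as TARPs, the transmembrane proteins that escort AMPA-type glutamate receptors to synapses.

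*Psenen*, which encodes PEN-2, a subunit of the protease γ-secretase, was 6.84 ± 0.485 FPKM in control cortex against 3.83 ± 0.241 in cKO (SD over 3 libraries each), with a log2 difference of -0.82 (limma adjusted p = 0.00441). Library depth, estimated from the whole-fragment steps of low values, was 20220000 to 24840000 fragments in control libraries and 25120000 to 26800000 in cKO libraries. Since this is bulk tissue, fewer cells of a type and less RNA per cell cannot be told apart.

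The question addressed here was whether channel subunit expression differed between cKO and control cortex. No channel gene of the 30 tested was called at an adjusted p under 0.05 (0 higher and 0 lower, limma), whereas 5.53% of all 14147 tested genes were, 3.67% higher and 1.87% lower in cKO cortex. At an unadjusted p under 0.05 there were 5 members, 4 of them higher in cKO and 1 lower, which is 16.7% of the members against 22.9% of all tested genes (16.5% higher and 6.33% lower). The libraries of the groups did not overlap for 6 members, 20% of those tested, against 29.7% of all tested genes, and 4 of them were higher in cKO (21.5% of all genes were) and 2 lower (8.17%). The members' shares were thus not above the background by any of these counts. The 2 smallest adjusted p-values were those of *Scn2b* (0.0650) and *Cacng4* (0.0752), both with higher values in cKO cortex. The count depended on scaling and on 1 library. Scaling all libraries to equal FPKM sums gave 2 members called, *Scn2b* (limma adjusted p = 0.0476) and *Cacng4* (adjusted p = 0.0303). Without cKO replicate 3, *Scn2b* alone was called (limma adjusted p = 0.0215). In these 2 alternatives, 1151 and 639 of all 14147 tested genes were called.

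The differences were small for most members. On the log2(FPKM + 0.1) scale, where the added constant shrinks differences of genes with low values, 25 of 30 had a difference of less than 0.25 in size, and the median was 0.06, beside 0.07 over all tested genes. For 22 members the 95% interval of the difference lay within 0.5 of 0, and for 27 it lay within 1. The exceptions to the latter were *Scn2b*, *Scn4b* and *Cacna2d1*. Rescaling the libraries moves all genes alike: the members' median was -0.01 after median-ratio scaling and 0.11 when sums were made equal, where the median of all tested genes was -0.00090 and 0.12. The number of members above 0, 21 with FPKM as deposited, went with that shift, to 14, to 15 after upper-quartile scaling, and to 24.

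**Figure D1:**
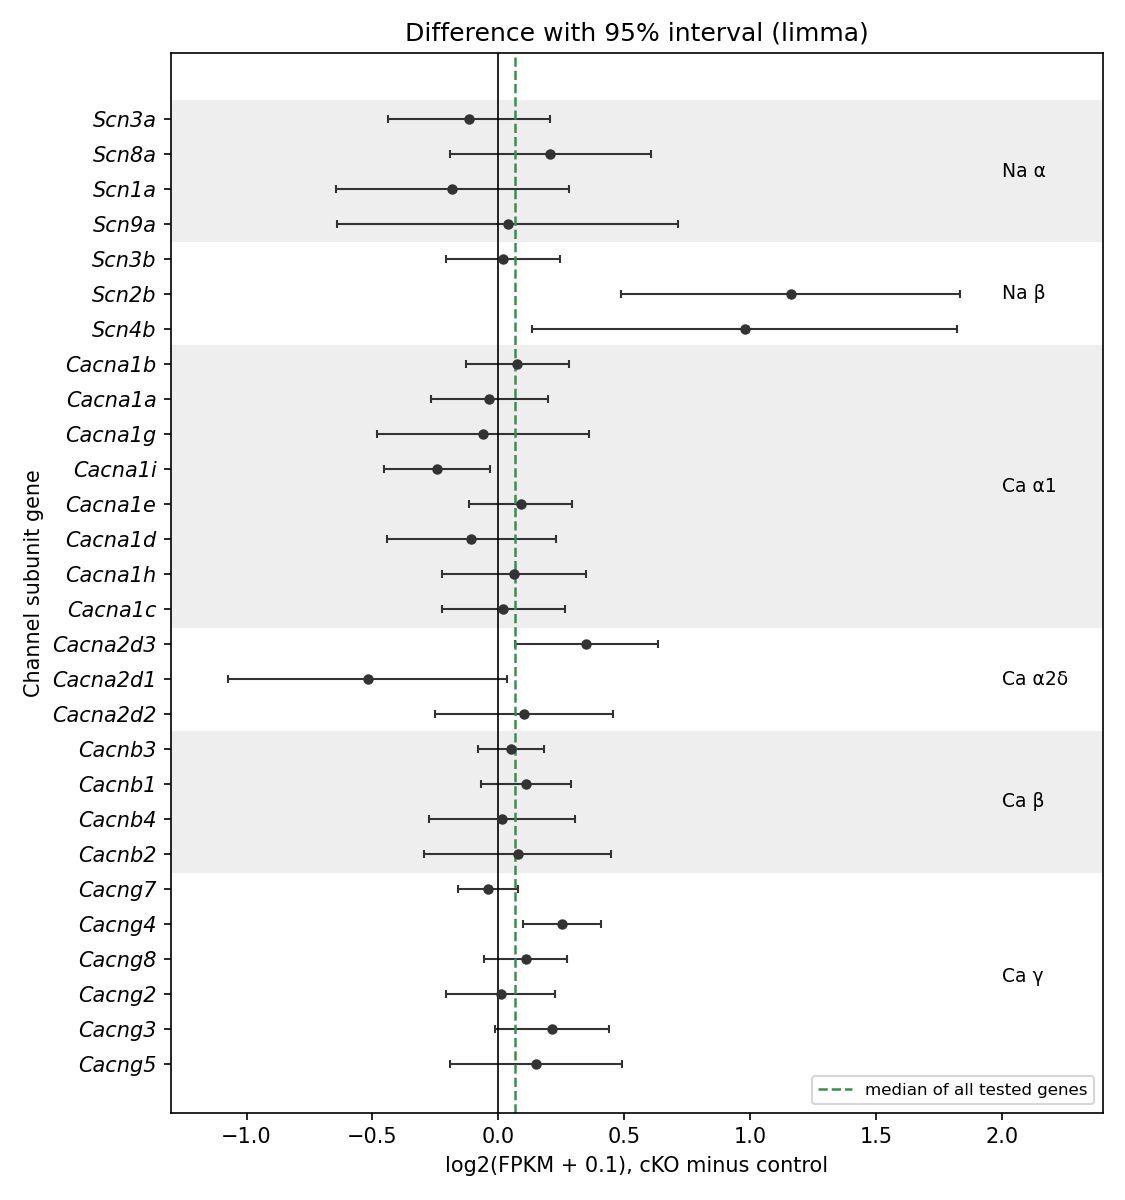
Difference between Pen-2 cKO and control cortex for 28 channel subunit genes (horizontal axis, log2(FPKM + 0.1), cKO minus control), grouped by role, with points for the limma estimate and bars for its 95% interval. Most intervals span 0 or lie close to the median of all tested genes (dashed line, 0.07), and those of *Scn2b* and *Scn4b* lie farthest to the right.

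**Figure D2:**
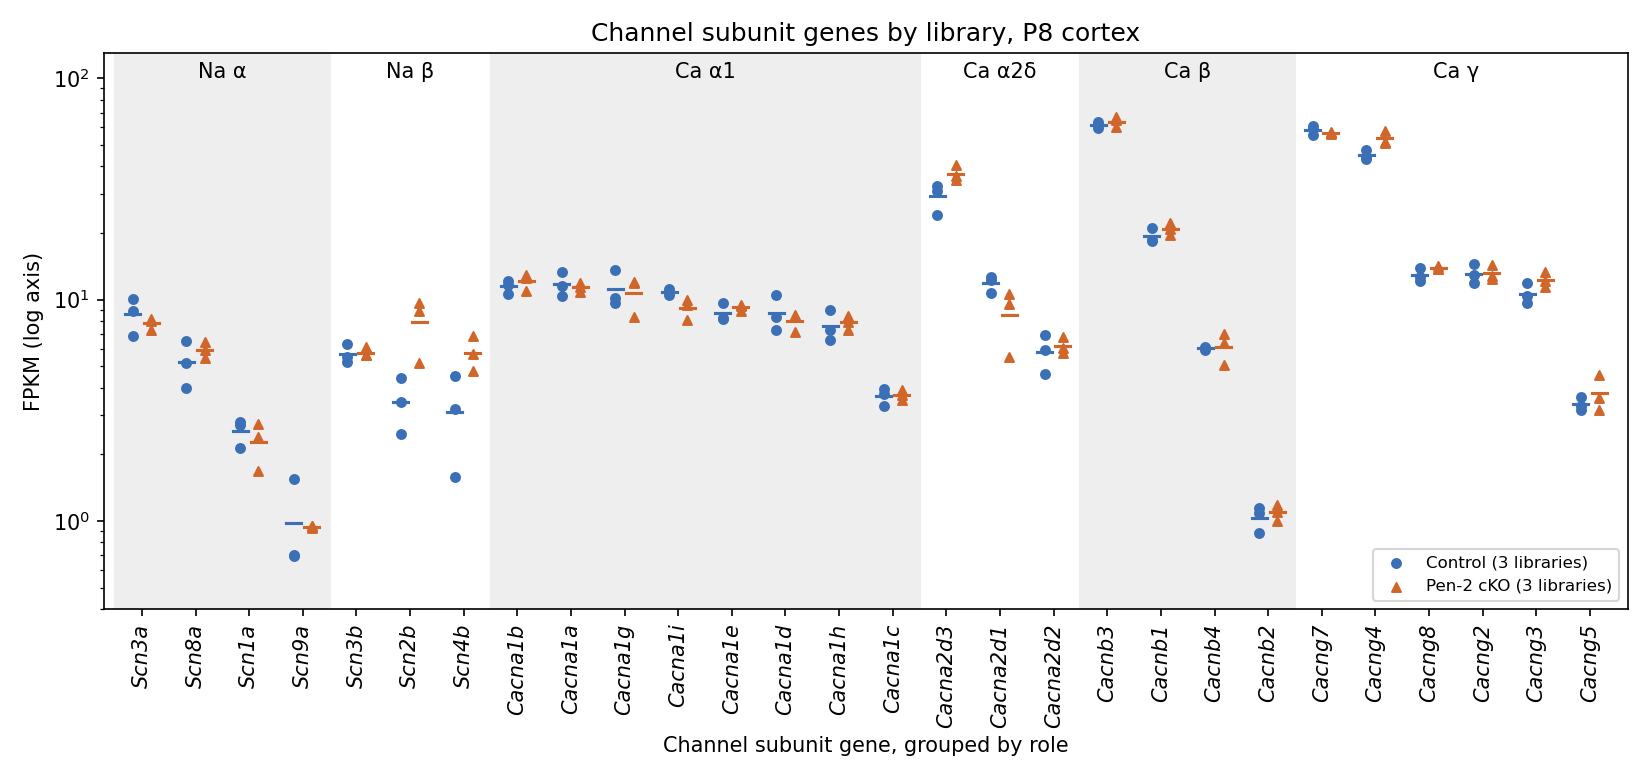
FPKM on a log axis in each of 6 libraries for 28 channel subunit genes, with circles for control, triangles for Pen-2 cKO and short lines for group means. Levels span a wide range across the roles, from *Cacnb3* at about 62.6 FPKM on average to *Scn9a* at 0.961 FPKM, while the groups mostly overlap.

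Among the sodium channel alpha subunits, 5 of 9 were tested and none was called. *Scn3a*, the alpha subunit of fetal and early postnatal brain, was 10.02, 8.87 and 6.87 FPKM in the control libraries against 8.04, 8.18 and 7.27 in those of cKO cortex. The cKO libraries lay inside the control range, and the log2 difference was -0.12 (95% interval -0.44 to 0.21). *Scn8a*, the alpha subunit that gathers at axon initial segments and mature nodes of Ranvier, was 6.48, 3.98 and 5.19 FPKM in control libraries against 5.92, 6.42 and 5.46 in cKO. Its groups overlapped too, with a log2 difference of 0.21 (95% interval -0.19 to 0.60), which was 0.03 without control replicate 2 and 0.37 without control replicate 1. *Scn1a*, which carries much of the sodium current of fast-spiking interneurons, was 2.56 ± 0.362 FPKM in control cortex against 2.27 ± 0.539 in cKO. *Scn9a*, better known from sensory neurons, was low, at 0.695 to 1.54 FPKM across the libraries. Its log2 difference of 0.04 had the wide 95% interval of -0.64 to 0.72.

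*Scn2a1*, *Scn3a*, *Scn8a* and *Scn1a* came in that order of level in all 6 libraries. *Scn2a1*, the main alpha subunit gene of excitatory neurons' axons, had the highest level at 26.8 ± 1.005 FPKM in control cortex against 26.4 ± 2.38 in cKO (log2 difference -0.02, 95% interval -0.20 to 0.15). The 9 alpha subunit genes named here, *Scn2a1* included, summed to 44.4 ± 4.20 FPKM in control cortex against 43.7 ± 3.10 in cKO. *Scn3a* made up 19.2% ± 2.14 of that sum in control and 17.9% ± 0.429 in cKO cortex (SD, n = 3). The share of *Scn8a* was 11.7% ± 2.15 and 13.6% ± 0.746, and that of *Scn1a* 5.75% ± 0.544 and 5.21% ± 1.27. None of these shares differed between groups by more than the spread between libraries.

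**Figure D3:**
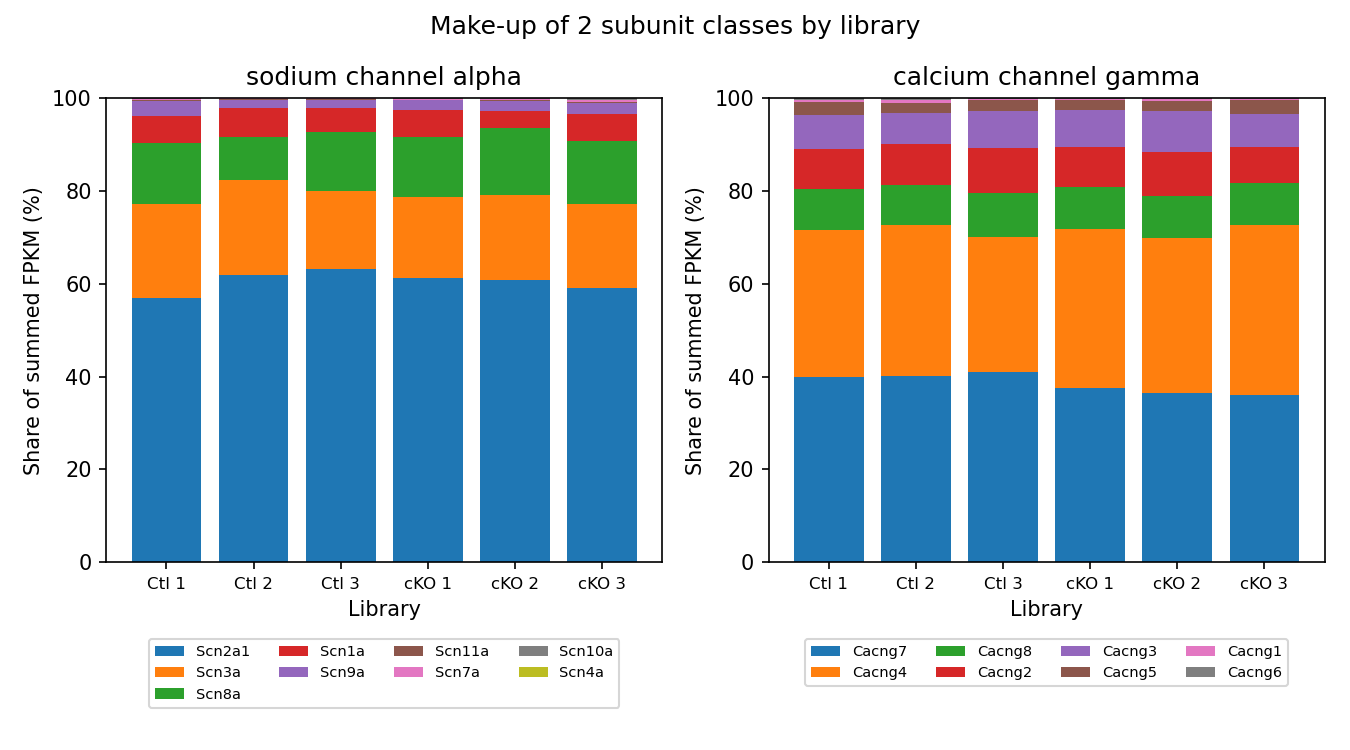
Share of the summed FPKM (percent) held by each gene in each of 6 libraries for the sodium channel alpha subunit genes named in the text, with *Scn2a1* added, and for the calcium channel gamma subunits. The alpha subunit make-up is alike across libraries, with *Scn2a1* at 56.8% to 63.2%. *Cacng7* holds 40.0% to 40.9% of the gamma subunit sum in control and 36.1% to 37.6% in cKO libraries. *Cacng4* holds 29.2% to 32.4% and 33.4% to 36.5%. Shares of 1 sum depend on each other, and the FPKM values of *Cacng7* overlap between the groups.

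The beta subunits held the largest differences of the channel genes, in *Scn2b* and *Scn4b*. Both encode beta subunits that are linked to the alpha subunit by a disulfide bond, and the *Scn4b* protein also supplies the open-channel blocker behind resurgent sodium current. *Scn2b* was 3.46, 2.46 and 4.42 FPKM in control libraries against 8.85, 9.69 and 5.17 in cKO. Each cKO library exceeded each control library, and cKO replicate 3 lay nearest to the controls. The log2 difference was 1.16 (SE 0.29, 95% interval 0.49 to 1.83, limma adjusted p = 0.0650), a 2.24-fold ratio that did not pass. Without each library in turn the log2 difference was 0.95 to 1.44, with adjusted p from 0.0215 to 0.183.

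*Scn4b* was 1.58, 3.19 and 4.52 FPKM in control libraries against 5.67, 4.78 and 6.84 in cKO. The groups did not overlap, but control replicate 3 came within a small margin of cKO replicate 2, and the control libraries were widely spread. The log2 difference was 0.98 (SE 0.35, 95% interval 0.14 to 1.82, limma adjusted p = 0.166), and it ranged from 0.57, without control replicate 1, to 1.30 with 1 library left out. *Scn4b* has 1 transcript of 4982 bases in the GENCODE annotation used here. With that length, its values correspond to about 170, 321 and 559 fragments in control and 710, 621 and 913 in cKO libraries. In the authors' deposited table, whose test is not stated, the q-values were 0.0489 for *Scn2b* and 0.0120 for *Scn4b*, and *Scn4b* was the only channel gene carrying an up or down call. The share of all genes with such a q-value or call was not counted, so these values have no background beside them.

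*Scn4b* is abundant in the projection neurons of the striatum, which adjoins the cortex, and striatal markers were measured beside it. Of 9 markers, 2 rose and none fell, where 3.67% of all tested genes were called higher and 1.87% lower. These were *Rgs9* and *Tac1* (log2 0.59 and 0.66, limma adjusted p = 0.0492 for each), and the median log2 difference of the list was 0.66. Neither call was stable: with 1 library left out 0 or 1 marker rose, and with median-ratio scaling the adjusted p was 0.0831 for *Rgs9* and 0.0830 for *Tac1*. *Adora2a*, an adenosine receptor of these neurons, was 7.48, 14.7 and 17.1 FPKM in control libraries against 20.1, 20.8 and 29.1 in cKO (adjusted p = 0.168). As with *Scn4b*, control replicate 1 was the lowest library and cKO replicate 3 the highest. This held for every marker of the list except *Drd1*, which was highest in control replicate 2. How many of all tested genes have this order was not counted. The groups overlapped for *Drd1*, *Ppp1r1b* and *Pde10a* (log2 difference 0.15, 0.22 and 0.67). For the other markers each cKO library exceeded each control library. The summed level of the 9 markers was 85.1 to 156 FPKM in control libraries against 163 to 243 in cKO, and no marker was at 0 in all libraries. Their part in the *Scn4b* values was not tested. *Scn2b* differed from the order of *Scn4b*, with cKO replicate 3 the lowest of the cKO libraries.

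**Figure D4:**
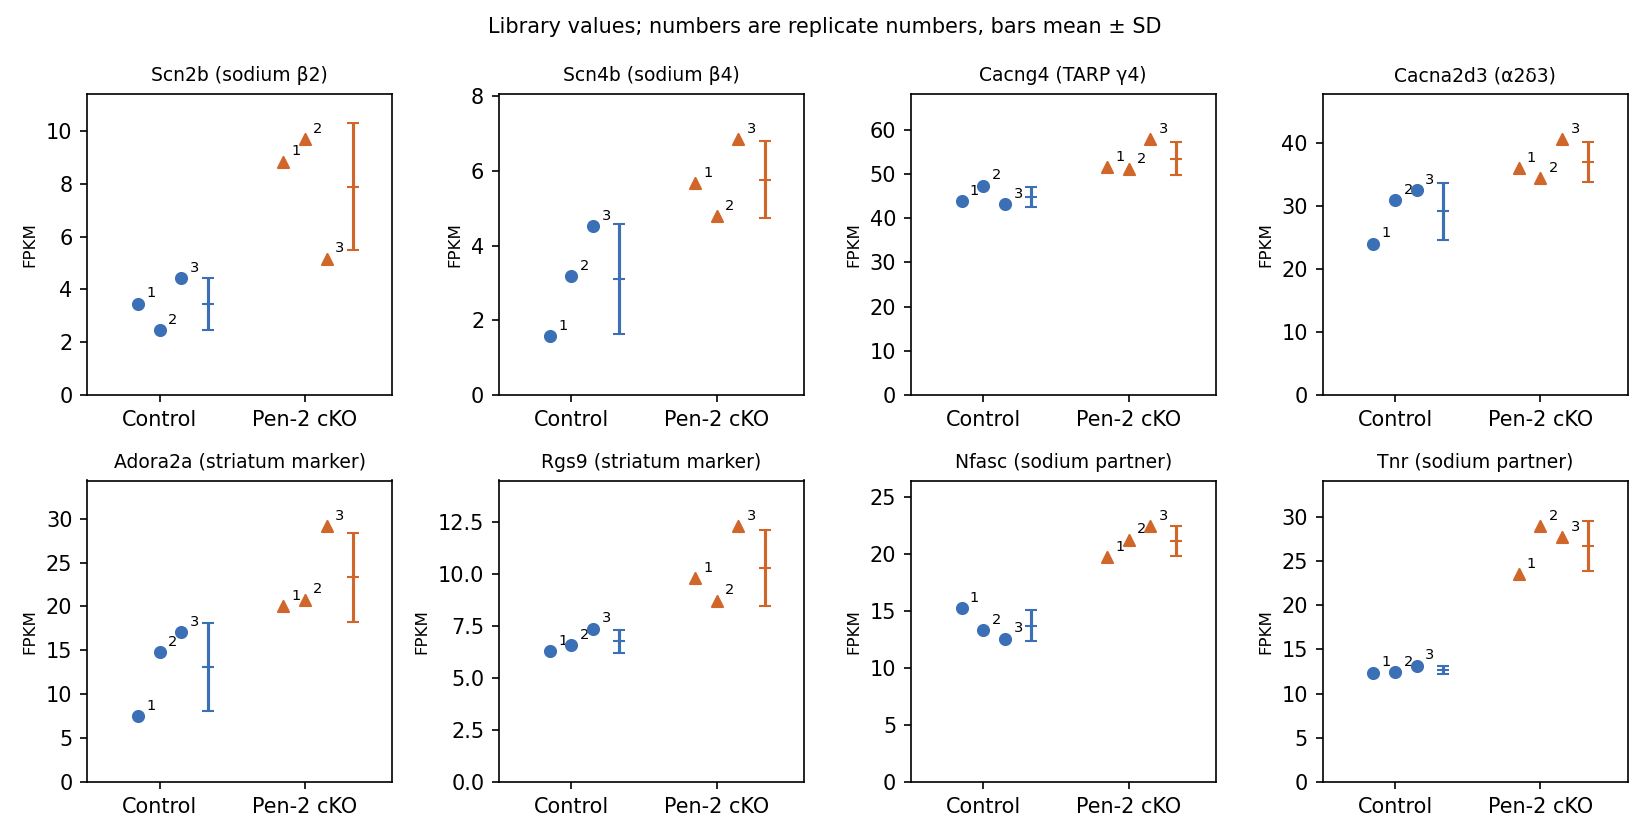
FPKM by library (replicate numbers beside the points, bars for mean ± SD, n = 3 per group, axes from 0) for 4 channel genes whose groups did not overlap upwards, 2 striatal markers and 2 sodium channel partners. *Scn4b* and *Adora2a* share their lowest library, control replicate 1, and their highest, cKO replicate 3, while *Nfasc* and *Tnr* are well apart between groups.

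*Scn2b* and *Scn4b* are neighbours on mm10 chromosome 9, at 45117876 to 45130070 and 45138437 to 45154152, with 8366 bases between them. Their RefSeq promoter windows (GRCm38.p6, plus strand, 250 bases before to 50 after the start) are shown because these neighbouring genes had the largest differences, at chr9:45117626-45117925 and chr9:45138374-45138673. Capitals mark each CG dinucleotide.
Scn2b: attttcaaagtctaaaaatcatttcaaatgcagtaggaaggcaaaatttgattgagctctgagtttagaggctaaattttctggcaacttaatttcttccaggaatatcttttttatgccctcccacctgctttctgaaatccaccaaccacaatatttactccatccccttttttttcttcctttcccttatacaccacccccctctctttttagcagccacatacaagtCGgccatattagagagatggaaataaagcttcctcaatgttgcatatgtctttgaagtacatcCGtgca
Scn4b: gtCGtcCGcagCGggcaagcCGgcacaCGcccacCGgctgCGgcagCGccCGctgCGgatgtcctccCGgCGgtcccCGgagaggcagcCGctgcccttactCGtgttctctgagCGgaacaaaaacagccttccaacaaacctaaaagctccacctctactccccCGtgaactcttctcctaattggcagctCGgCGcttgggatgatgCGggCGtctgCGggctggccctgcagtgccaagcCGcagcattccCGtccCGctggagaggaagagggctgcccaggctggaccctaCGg
Most of the *Scn4b* window lies inside the gene bounds given above, since its RefSeq start is downstream of 45138437. For *Scn2b* the RefSeq start and the gene bound match. The sequences differ in composition. The *Scn2b* window holds 2 CG dinucleotides at a GC content of 38.3%, and that of *Scn4b* holds 26 at 66.3%, against medians of 7 and 53.0% over 32544 windows. The hexamer TGGGAA, the core of the site bound by RBPJ, the DNA-binding partner of Notch, was searched on both strands and is not in either window. It was found in at least 1 window of 9 of the 28 members that have one. Over all windows it was in 25.4%, a share per window that is not directly comparable with a count per gene.

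*Scn3b*, whose beta subunit binds the alpha subunit without a disulfide bond, was 6.33, 5.24 and 5.51 FPKM in control libraries against 5.59, 5.597 and 6.08 in cKO. The groups overlapped throughout, and the log2 difference was 0.02 (95% interval -0.21 to 0.25).

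Of the calcium channel alpha1 genes, 8 of 9 were tested, none was called, and 4 lay above and 4 below 0, with a median log2 difference of -0.01. *Cacna1b*, the N-type pore of presynaptic terminals, was 12.2, 10.6 and 11.7 FPKM in control libraries against 12.9, 12.5 and 10.95 in cKO (log2 difference 0.08, 95% interval -0.13 to 0.28). *Cacna1a*, the P/Q-type pore of fast transmitter release, was 11.5, 10.4 and 13.3 FPKM in control libraries against 11.4, 11.9 and 10.8 in cKO (log2 difference -0.04, 95% interval -0.27 to 0.20). For both genes the groups overlapped. *Cacna1e*, the R-type pore, was 8.69 ± 0.869 and 9.23 ± 0.299 FPKM. The L-type genes *Cacna1d* and *Cacna1c*, which couple activity to transcription, were 8.72 ± 1.66 and 8.02 ± 0.785 FPKM, and 3.67 ± 0.336 and 3.71 ± 0.191 FPKM, in control and cKO cortex respectively.

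*Cacna1i*, a T-type pore that opens near rest, was the alpha1 gene whose libraries did not overlap. It was 10.5, 10.8 and 11.2 FPKM in control libraries against 9.91, 9.47 and 8.09 in cKO, each cKO library lying below each control library. The log2 difference was -0.24 (SE 0.09, 95% interval -0.45 to -0.03, limma adjusted p = 0.163) and did not pass, and it was -0.16 without cKO replicate 3. Of the other T-type genes, *Cacna1g* was 11.1 ± 2.20 and 10.7 ± 2.07 FPKM and *Cacna1h* 7.60 ± 1.21 and 7.88 ± 0.560 FPKM. The summed alpha1 level was 73.9 ± 4.75 FPKM in control cortex against 72.2 ± 5.37 in cKO. In order of mean level, 7 alpha1 genes from *Cacna1b* down to *Cacna1h* lay between 7.74 and 11.8 FPKM, and their neighbours in that order overlapped in library values.

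The alpha2delta genes *Cacna2d3* and *Cacna2d1* both had libraries that did not overlap, in opposite directions. *Cacna2d3*, the alpha2delta gene with the highest level, was 24.1, 31.0 and 32.6 FPKM in control libraries against 36.1, 34.5 and 40.6 in cKO. The cKO libraries were all higher, with a log2 difference of 0.35 (95% interval 0.07 to 0.63, limma adjusted p = 0.143), which was 0.22 without control replicate 1. As with *Scn4b* and *Adora2a*, control replicate 1 was its lowest library and cKO replicate 3 its highest. What this shared order means was not tested. *Cacna2d1*, a binding site of gabapentin and a receptor for astrocyte thrombospondins, was 12.7, 10.65 and 12.2 FPKM in control libraries against 10.59, 5.48 and 9.53 in cKO. The margin between its groups was narrow, and cKO replicate 2 stood well below the others. Its log2 difference was -0.52 (95% interval -1.07 to 0.03, limma adjusted p = 0.245), and without cKO replicate 2 it was -0.23. *Cacna2d2* was 5.82 ± 1.16 and 6.18 ± 0.525 FPKM. *Cacna2d3* made up 61.9% ± 6.08 of the summed alpha2delta level in control and 71.6% ± 3.43 in cKO cortex, and *Cacna2d1* 25.3% ± 3.34 and 16.2% ± 4.09.

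All 4 cytoplasmic beta subunit genes of the calcium channel were tested and none was called. *Cacnb3*, the channel gene with the highest mean level of all members, was 59.8, 61.4 and 63.2 FPKM in control libraries against 66.5, 64.8 and 60.0 in cKO. The groups overlapped, and the interval of the log2 difference was among the narrowest of the members (0.05, 95% interval -0.08 to 0.18). *Cacnb1* was 18.3, 18.6 and 21.0 FPKM in control libraries against 19.6, 20.7 and 22.2 in cKO, again with overlap (log2 difference 0.11, 95% interval -0.07 to 0.29). *Cacnb4*, a partner of P/Q-type channels, was 6.02 ± 0.103 and 6.13 ± 0.995 FPKM, and *Cacnb2* was 1.04 ± 0.133 and 1.09 ± 0.0904 FPKM. *Cacnb3* held 70.0% ± 0.589 of the summed beta level in control and 69.4% ± 1.65 in cKO cortex.

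Of the 8 gamma subunit genes, the 6 that were tested are the TARPs of the brain, and none was called. *Cacng4* was 43.9, 47.3 and 43.2 FPKM in control libraries against 51.6, 51.0 and 57.8 in cKO. Each cKO library exceeded each control library by a modest margin. The log2 difference was 0.25 (SE 0.07, 95% interval 0.10 to 0.41, limma adjusted p = 0.0752), a 1.19-fold ratio, and adjusted p was 0.120 to 0.176 when 1 library was left out. *Cacng7* was 55.5, 58.8 and 60.6 FPKM in control libraries against 56.8, 55.8 and 57.1 in cKO. Its groups overlapped, and its interval was the narrowest of all members (log2 difference -0.04, 95% interval -0.16 to 0.08). *Cacng2*, which encodes stargazin, was 13.1 ± 1.25 and 13.2 ± 1.03 FPKM. *Cacng8*, the TARP typical of hippocampus, was 12.9 ± 0.936 and 13.9 ± 0.278 FPKM, and *Cacng3* was 10.6 ± 1.10 and 12.3 ± 0.992 FPKM. *Cacng5* was 3.36 ± 0.238 and 3.78 ± 0.719 FPKM. Within the gamma subunit sum, *Cacng7* held 40.4% ± 0.503 in control and 36.8% ± 0.792 in cKO cortex, and *Cacng4* held 31.1% ± 1.68 and 34.7% ± 1.602. The libraries of the groups did not overlap for either share. As parts of 1 sum the shares depend on each other, and they were not tested.

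Oligodendrocyte precursors, another cell type of the tissue, differed between the same libraries. Of 10 of their markers, 7 rose and none fell, with a median log2 difference of 1.35, and their summed level was 122 to 147 FPKM in control libraries against 286 to 359 in cKO. Of 10 oligodendrocyte markers, 8 rose and none fell (median 2.34, summed level 28.4 to 45.1 and 122 to 191 FPKM). Of 10 astrocyte markers, 7 fell and none rose (median -1.78, summed level 332 to 404 and 102 to 167 FPKM). Among all tested genes 3.67% were called higher and 1.87% lower. No marker of these lists was at 0 in all libraries, and with 1 library left out 7 to 8 precursor markers and 8 oligodendrocyte markers rose and 6 to 8 astrocyte markers fell. The part of these cells in the values of *Cacng4*, *Scn2b* and the other channel genes was not tested.

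Markers of neurons, in which most channel subunits are made, were measured too. Among all tested genes 3.67% were called higher and 1.87% lower, and at an unadjusted p under 0.05 the shares were 16.5% and 6.33%. In a list of 10 markers of neurons in general, 1 fell (*Tubb3*, a neuronal tubulin, log2 -0.30) and 1 rose, *Gad1* (log2 0.58), whose enzyme makes GABA and which marks inhibitory neurons rather than all neurons. At an unadjusted p under 0.05, 4 were lower, *Tubb3*, *Rbfox3*, *Stmn2* and *Nefm*, and *Gad1* alone was higher. Neither call held without control replicate 1, control replicate 2 or cKO replicate 2. The median difference over the list was -0.09, beside a summed level of 2272 to 2359 FPKM in control libraries against 1910 to 2051 in cKO. Most of that sum was *Tubb3*, at 1358 to 1439 and 1105 to 1191 FPKM. Of 6 interneuron markers tested, *Sst* and *Gad1* rose (log2 0.62 and 0.58). Without control replicate 1, control replicate 2 or cKO replicate 2, 1 of them was called. The list summed to 418 to 486 and 646 to 731 FPKM, most of it *Sst*, at 362 to 432 and 565 to 661 FPKM. *Pvalb* was at most 0.357 FPKM. None of 8 microglia markers was called by limma, 0 higher and 0 lower, with 5 higher and 0 lower at an unadjusted p under 0.05 (median 0.43, summed level 68.9 to 88.8 and 97.9 to 159 FPKM). Among 8 vessel markers, *Cdh5* and *Tagln* rose (median 0.31, summed level 72.1 to 77.7 and 95.02 to 98.2 FPKM), but 0 to 3 of the list did with 1 library left out, 0 of them without control replicate 1 or 2. *Dcn* and *Lum* rose among 6 choroid plexus and meningeal markers tested (median 1.09). In that list 1 was called without control replicate 1, control replicate 2 or cKO replicate 1. The summed level was 54.1 to 201 FPKM in control libraries against 222 to 956 in cKO. Most of that sum was *Ttr*, at 33.1 to 178 and 182 to 877 FPKM, which was not called (limma adjusted p = 0.187). Of 8 muscle markers, 7 were under 0.5 FPKM in every library, and the 1 tested, *Acta1*, was 7.14 ± 0.122 and 6.63 ± 0.512 FPKM and was not called. The part of these cells in the channel gene values was likewise not tested.

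The 8 members under the filter included subunits known mainly from other tissues. *Scn10a* and *Scn11a* of sensory neurons were at 0.0251 to 0.157 and 0.00682 to 0.166 FPKM across the 6 libraries, and *Scn4a* of skeletal muscle was at 0.00571 to 0.0226 FPKM. *Scn7a*, the sodium-level sensor of some glia, reached 0.147 FPKM, about 29 fragments, in its highest library. The retinal genes *Cacna1f* and *Cacna2d4* reached 0.0225 and 0.137 FPKM. *Cacng1* and *Cacng6* lay just below the filter, with 0.5 FPKM or more in 2 libraries each, all of them controls. *Cacng1*, the gamma subunit of the skeletal muscle channel, was 0.777, 0.949 and 0.418 FPKM in control libraries against 0.319, 0.429 and 0.328 in cKO, which overlapped and correspond to 10 to 24 fragments. Just inside the filter was *Scn9a*, at a mean of 0.961 FPKM.

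Several members sit in gene clusters, and levels within a cluster differed widely. On chromosome 2 the alpha subunit genes *Scn3a*, *Scn2a1*, *Scn1a*, *Scn9a* and *Scn7a* lie within 1327797 bases, with mean levels of 8.21, 26.6, 2.41, 0.961 and 0.0870 FPKM. On chromosome 11 *Cacng4* lies between *Cacng1* and *Cacng5*, which are 15834 and 80047 bases away, and its mean level was 49.1 FPKM beside 0.537 and 3.57 FPKM. On chromosome 7 *Cacng7*, *Cacng8* and *Cacng6* lie within 102713 bases, at 57.4, 13.4 and 0.462 FPKM.

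Proteins that anchor or modulate the channels were given by lists. Of 16 sodium channel partners tested, 3 rose and none fell, with a median log2 difference of 0.18. Among all tested genes 3.67% were called higher and 1.87% lower, with a median of 0.07. *Nfasc*, which encodes the adhesion protein neurofascin of initial segments and nodes, was 15.2, 13.3 and 12.6 FPKM in control libraries against 19.7, 21.2 and 22.4 in cKO (log2 0.62, SE 0.09, limma adjusted p = 0.0103). *Tnr*, the matrix protein tenascin-R made by oligodendrocyte lineage cells and some neurons, was 12.4, 12.4 and 13.1 FPKM in control libraries against 23.5, 28.9 and 27.7 in cKO (log2 1.07, SE 0.09, adjusted p = 0.00122). *Fgf11*, an intracellular FGF homologue that binds sodium channels, was 5.41 ± 1.08 and 8.42 ± 0.685 FPKM (log2 0.65, adjusted p = 0.0488), a call that was lost in 11 of 17 alternatives. With 1 library left out, 1 to 3 of these partners rose. *Nfasc* is also made by oligodendrocytes, whose markers had summed levels of 28.4 to 45.1 FPKM in control libraries and 122 to 191 in cKO, and their part in its value was not tested.

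Of 26 calcium channel partners tested, none was called by limma, 0 higher and 0 lower, and their median log2 difference was -0.06. At an unadjusted p under 0.05, 4 were higher and 5 lower. Among all tested genes 3.67% were called higher and 1.87% lower, and at that unadjusted p 16.5% were higher and 6.33% lower. The partners with the highest mean levels were the calmodulin genes *Calm2*, at 935 ± 51.8 and 797 ± 64.0 FPKM, and *Calm3*, at 814 ± 45.9 and 730 ± 12.6 FPKM (adjusted p = 0.112 and 0.135). Both calmodulin genes had cKO libraries below every control library, as did 8.17% of all tested genes. Of 17 AMPA receptor subunits and other auxiliary proteins, 2 rose and none fell (median 0.14). These were *Nptx2*, a secreted pentraxin that clusters AMPA receptors, at 8.45 ± 0.218 and 11.1 ± 0.687 FPKM (log2 0.39, adjusted p = 0.0256), and *Gria4*, an AMPA receptor subunit, at 15.2 ± 0.544 and 18.6 ± 0.889 FPKM (log2 0.28, adjusted p = 0.0467). *Nptx2* was called in 11 of 17 alternatives and *Gria4* in 6, and with 1 library left out 0 to 2 of the list rose.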

How the data were processed

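RNA from 6 samples of mouse cortex, 3 per group, was sequenced. The authors deposited FPKM values per gene and library, per the file headers, with the genome build mm10 named in the submitters' processing notes. The sources used here name no aligner, counter or annotation release. The deposited table also holds q-values, p-values corrected by the authors, whose test is not stated. FPKM is relative to all mapped fragments, so a few abundant genes can shift every other gene.

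Values were used as log2(FPKM + 0.1). The 14147 of 34745 genes that reached 0.5 FPKM in 3 or more of 6 libraries were fitted with limma 3.58.1 in R 4.3.3, with a mean-variance trend, robust variance estimation and group as the only term. P-values were Benjamini-Hochberg adjusted over all tested genes, with a call at 0.05. The code was tested on simulated data. Depth was estimated from the steps of low FPKM values in genes with a single transcript, where 94.6% to 95.4% of values lay within 0.03 fragments of a whole number. Transcript numbers and lengths came from a GENCODE mouse annotation, which may differ from the one the authors used. Python 3.11.15, pandas 2.3.3, NumPy 2.4.6 and matplotlib 3.10.9 served for tables and plots.

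Members were chosen by gene name. The values of 2 tested members are not reported here, though the counts over members include them. Values in every library are given for members whose groups did not overlap and for the 2 members of each role with the highest mean. From each partner list the called genes are named, or the 2 with the highest mean where none was called. Members and lists were chosen with earlier results of these data known. Alternatives were other pseudocounts, filters, scalings, variance settings, a threshold of 0.1, a replicate block and leaving out each library. Those for the partner and marker lists were added after seeing the data.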

Additional observations from a re-analysis of the deposited data

How the results depend on the processing

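Precision was limited by 3 libraries per group at 20220000 to 26800000 fragments each. The number of all tested genes called was 783, with 499 without a filter, 1519 at an adjusted p under 0.1, and 220 to 842 with 1 library left out (311 and 220 without control replicate 1 and 2, 321 and 312 without cKO replicate 1 and 2). That number was 1151 with equal sums and 639 without cKO replicate 3. Of the calls, 66.3% were higher in cKO with FPKM as deposited, 47.8% after median-ratio and 50.4% after upper-quartile scaling, and 78.8% with equal sums, which moved the median of all tested genes from 0.07 to 0.12. Channel genes called higher numbered 0, but 2 with equal sums, 2 at an adjusted p under 0.1, and 0 to 1 with 1 library left out, the 1 being *Scn2b* without cKO replicate 3. Channel genes called lower numbered 0 in every alternative. Deviations from the group means correlated at 0.06, 0.01 and 0.10 for samples with the same replicate number. For other pairs of control and cKO samples the correlations were -0.09 to 0.06. With 3 libraries per group these values cannot decide whether the number marks a pairing. With the replicate block, 456 genes and 0 channel genes were called, as were 3 microglia markers, while *Tubb3* was not. The log2 difference kept its sign in every alternative for 14 of 30 members and changed it in at least 1 for 16, all of them within 0.25 of 0 with FPKM as deposited. The cause was not tested. Its value with median-ratio scaling was -0.00712 for *Cacna1h*, -0.0474 for *Cacna1c*, -0.0175 for *Cacnb3*, -0.0548 for *Cacnb4*, -0.0592 for *Cacng2*, -0.0248 for *Scn9a* and -0.0488 for *Scn3b*. Upper-quartile scaling gave -0.0371 for *Cacna1c*, -0.00692 for *Cacnb3*, -0.0444 for *Cacnb4*, -0.0487 for *Cacng2*, -0.0156 for *Scn9a* and -0.0385 for *Scn3b*. Equal sums gave 0.0151 for *Cacna1a* and 0.00899 for *Cacng7*, and a pseudocount of 1 gave -0.000651 for *Scn9a*. With 1 library left out the range was -0.121 to 0.0561 for *Cacna1a*, -0.0525 to 0.0753 for *Cacna1c*, -0.229 to 0.0356 for *Cacna1d*, -0.156 to 0.111 for *Cacna1g*, -0.0356 to 0.182 for *Cacna1h*, -0.0525 to 0.236 for *Cacna2d2*, -0.0220 to 0.142 for *Cacnb2*, -0.0850 to 0.146 for *Cacnb4*, -0.0548 to 0.0803 for *Cacng2*, -0.326 to 0.0107 for *Scn1a*, -0.266 to 0.00194 for *Scn3a*, -0.0378 to 0.0962 for *Scn3b* and -0.140 to 0.382 for *Scn9a*.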
